A study of Mus musculus with 5 samples.

Results

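The libraries described here come from mouse nuclear-transfer embryos at the 4-cell stage in which histone H3.3 had been knocked down and H3.3 mRNA was then supplied, set against embryos treated with luciferase, the study's control treatment. They are 2 of the 5 RNA-seq libraries of the series, 1 library for each group, and all 5 are B6D2F1 embryos, a hybrid mouse strain. The other groups are embryos with the H3.3 knockdown alone, knockdown embryos that received H3.2 mRNA, and untreated embryos. The H3.2 library has conflicting labels, since its title names H3.2 mRNA and its treatment tag names H3.3 mRNA, and its values are read here by the title. The donor cell, the means of the knockdown, the number of embryos pooled and whether the luciferase was given as an RNA are not stated by the labels. The question put to the data is what still differed from the luciferase embryos once H3.3 mRNA had been supplied.

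H3.3 is the variant of histone H3 that is put into chromatin outside DNA replication, by the chaperones HIRA, with UBN1 and CABIN1, and by ATRX with DAXX. It is encoded in the mouse by H3f3a and H3f3b, whose mRNAs are stored in the egg, and maternal H3.3 is loaded onto a transplanted nucleus. In a cloned embryo the oocyte's stored mRNAs have to be cleared and the embryo's own genes switched on, and the first lineages, the trophectoderm, which forms the placenta, and the inner cell mass, are set apart some divisions later. Luciferase is a firefly enzyme with no counterpart in the embryo.

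Values are FPKM, a level per length of transcript that is scaled to the reads mapped in the library. Genes were compared by the difference of log2(FPKM + 1), H3.3 mRNA minus luciferase, over 13144 of 22026 genes, those whose 5 values average 1 FPKM or more. The call for a higher or lower gene was set at 4-fold, which is 2 on that scale. With 1 library a side there is no replicate check, so every difference below compares these libraries and has no p-value. The log scale with a pseudocount of 1 understates the difference of genes with low values. Numbers in brackets after the values of a gene are its difference on this log2 scale. A gene with a value of exactly 0 is described as listed at 0 and is given no fold.

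The H3.3 mRNA library listed 11280 genes above 0, against 12261 with H3.2 mRNA, 10496 with the knockdown alone, 12300 with luciferase and 10443 in untreated embryos. Sequencing depth is unknown. Of 9 genes fixed as markers of 4-cell embryos, 8 were above 0 both with H3.3 mRNA and with luciferase, and Sox2 was listed at 0 in both. All 7 fibroblast markers were listed at 0 with H3.3 mRNA and 6 of 7 with luciferase, where Col1a2 had 2.48 FPKM. The 7 oocyte markers summed to 1044 FPKM with H3.3 mRNA, all above 0, and to 218 FPKM with luciferase, with Mos and Oosp1 listed at 0. They summed to 632 FPKM with H3.2 mRNA, 1359 FPKM with the knockdown alone and 4832 FPKM in untreated embryos. The source names split the series in another way: the H3.3 mRNA, knockdown and untreated libraries are called NT, and the H3.2 mRNA and luciferase libraries SCNT, with no statement of whether this marks separate experiments. The H3.3 mRNA and luciferase libraries therefore differ in source name as well as in treatment, and these cannot be told apart.

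The mRNAs of the targeted genes were not at control level in the embryos that received H3.3 mRNA. H3f3a had 95.5 FPKM with H3.3 mRNA and 3503 FPKM with luciferase, a difference of -5.18 on the log2 scale. Its values elsewhere were 129 FPKM with H3.2 mRNA, 128 FPKM with the knockdown alone and 783 FPKM in untreated embryos. H3f3b had 371 FPKM with H3.3 mRNA and 2230.4 FPKM with luciferase, a difference of -2.58. It had 292 FPKM with H3.2 mRNA, 535 FPKM with the knockdown alone and 4484 FPKM in untreated embryos. For each of these genes the 3 libraries with a knockdown lay below both the luciferase and the untreated library, with no overlap. Their sum with H3.3 mRNA was 467 FPKM, 8.14% of the luciferase value, and with the knockdown alone it was 664 FPKM, 11.6%. The supplied mRNA was thus not seen as a higher value of either symbol. No source says whether its sequence could be counted under them, and H3.3 genes share reads with processed copies elsewhere in the genome, so both values are uncertain.

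Over all genes, 1144 were at least 4-fold higher with H3.3 mRNA than with luciferase, which is 8.7% of those compared. At least 4-fold lower were 1647 genes, 12.5%, so that 21.2% lay 4-fold or more apart either way. The median difference was 0, and 7418 genes, 56.4%, lay within 2-fold. Many of the called genes rest on a value of 0: 545 of the higher ones were listed at 0 with luciferase, and 1141 of the lower ones were listed at 0 with H3.3 mRNA. Over the 8520 genes above 0 in every library, 370 were higher and 361 lower, which is 4.34% and 4.24%. The excess of lower over higher genes seen in the full set was thus not present among these. For scale, the luciferase and untreated libraries, both without a knockdown, lay 4-fold or more apart at 36.9% of genes, more than the H3.3 mRNA and luciferase libraries did, with luciferase higher at 23.5% and lower at 13.4%. Within the NT source name, the H3.3 mRNA library lay 4-fold or more from the untreated one at 34.4% of genes, 20.6% higher and 13.8% lower. Within the SCNT source name, the H3.2 mRNA library lay 4-fold or more from the luciferase one at 20.3%, 10.4% higher and 9.84% lower. The knockdown alone lay 4-fold or more from luciferase at 28.6%, 9.74% higher and 18.9% lower.

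**Figure D1:**
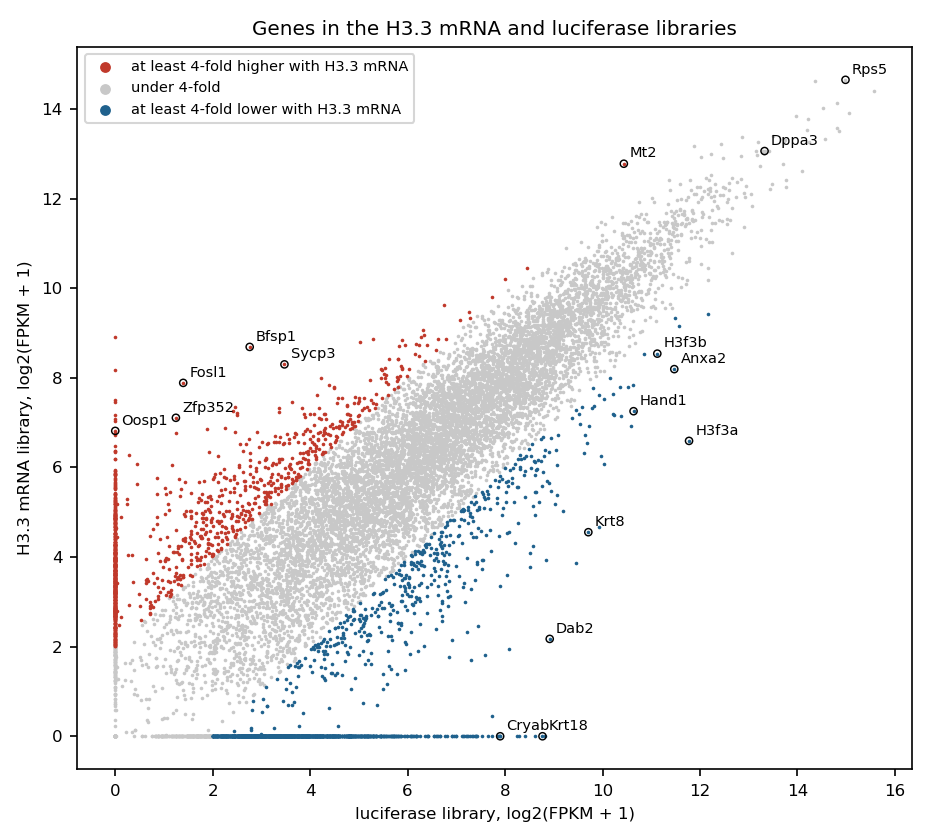
Each point is 1 of the 13144 genes compared, with its log2(FPKM + 1) in the H3.3 mRNA library on the vertical axis and in the luciferase library on the horizontal axis. Red points are at least 4-fold higher with H3.3 mRNA (1144 genes) and blue points at least 4-fold lower (1647), and most lie at low and middle levels or along the axes where 1 library lists 0.

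How far apart the libraries lay depended on the level of the gene. Among the 3197 genes with a mean of 1 to 10 FPKM over the 5 libraries, 15.7% were at least 4-fold higher with H3.3 mRNA and 26.6% at least 4-fold lower. Among the 4167 genes with a mean of 100 to 1000 FPKM those shares were 2.57% and 3.53%. At means of 1000 FPKM and above, 85.4% of 658 genes lay within 2-fold, and only 8 were called. Of these 8, the higher ones were Mt2, a metallothionein that binds zinc, with 7028 FPKM with H3.3 mRNA and 1385 FPKM with luciferase, Dohh, an enzyme that completes hypusine in the translation factor eIF5A, with 1177 and 254 FPKM, and Zbed3, a maternal protein of the egg cortex, with 292 and 43 FPKM, each time with H3.3 mRNA first. The lower ones were H3f3b, the annexin Anxa2 with 292 FPKM with H3.3 mRNA and 2840.1 FPKM with luciferase, the caspase Casp6 with 569 and 3043 FPKM, the cytochrome P450 gene Cyp2s1 with 684 and 4585 FPKM, and the thymidine kinase Tk1 with 645 and 2880.4 FPKM, in the same order. Against untreated embryos Zbed3 and Tk1 turned to the other side, with 4895 and 129 FPKM there (-4.06 and 2.31 for H3.3 mRNA). Anxa2 and H3f3b stayed lower (-3.1 and -3.59). Mt2, Dohh, Casp6 and Cyp2s1 kept their side but were under 4-fold from untreated embryos. These 8 genes were listed after their values were seen. The difference hardly followed transcript length: the rank correlation was 0.0252 over 6471 genes that average 50 FPKM or more, a description across genes, whereas for the knockdown alone minus luciferase it was -0.385 and for H3.2 mRNA minus luciferase 0.191.

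The genes furthest above luciferase belonged to several unrelated families. Among genes above 0 in every library the largest difference was that of Fosl1, a member of the AP-1 transcription factor family, with 236 FPKM with H3.3 mRNA and 1.63 FPKM with luciferase, or 6.49 on the log2 scale. Its value was 3.44 FPKM with H3.2 mRNA, 2.76 FPKM with the knockdown alone and 171 FPKM in untreated embryos, so it was high in the H3.3 mRNA and untreated libraries and low in the other 3. Bfsp1, which encodes the lens filament protein filensin, had 412 FPKM with H3.3 mRNA, 403 FPKM with the knockdown alone and 5.77 FPKM with luciferase (5.93 for H3.3 mRNA). Sycp3, a core protein of the synaptonemal complex of meiosis, had 314 and 10.1 FPKM with H3.3 mRNA and with luciferase (4.83), and 414 FPKM in untreated embryos. In both, the luciferase library was the lowest of the 5. Zfp352, a zinc finger gene active at the 2-cell stage, had 137 FPKM with H3.3 mRNA and 1.37 FPKM with luciferase (5.86). Slc19a1, the reduced folate carrier, had 108 FPKM with H3.3 mRNA and 1.39 FPKM with luciferase (5.51). The POU domain factor Pou2f3 had 151 and 4.36 FPKM in the same order (4.83). Rps23, a cytosolic ribosomal protein, also stood here with 76.8 FPKM with H3.3 mRNA and 0.22 FPKM with luciferase, but its values are far under those of other ribosomal proteins and near-identical copies of such genes can trade reads, so it is uncertain.

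Of the 15 genes with the largest differences of all, most were listed at 0 with luciferase. The highest was Defb25, a beta-defensin, with 176 FPKM with H3.3 mRNA, 46.5 FPKM with H3.2 mRNA and 379 FPKM with the knockdown alone, and listed at 0 in the luciferase and untreated libraries. Oosp1, an oocyte-secreted protein, had 112 FPKM with H3.3 mRNA and 349.9 FPKM in untreated embryos, and was listed at 0 with luciferase alone. Comp, a protein of cartilage matrix, had 107 FPKM with H3.3 mRNA and at most 5.81 FPKM in any other library. Duoxa2, the maturation factor of the dual oxidase DUOX2, had 80.2 FPKM with H3.3 mRNA and 303 FPKM in untreated embryos, and 0 in the other 3. Grap, Zswim2 and Ephx4, with 71.9, 59.2 and 57.2 FPKM with H3.3 mRNA, were listed at 0 in all 4 other libraries. Of the 15, these 3 were the only ones above 0 with H3.3 mRNA alone.

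The genes furthest below luciferase were mostly listed at 0 with H3.3 mRNA. Krt18, a keratin of simple epithelia and of the trophectoderm, was listed at 0 with H3.3 mRNA and had 13.1 FPKM with H3.2 mRNA, 48.7 FPKM with the knockdown alone, 435 FPKM with luciferase and 290.4 FPKM in untreated embryos. It was first in the ranking of lower genes, and H3.3 mRNA was the only library without it. Cryab, a small heat shock protein, was listed at 0 in all 3 libraries with a knockdown and had 238 FPKM with luciferase and 179 FPKM in untreated embryos. Col4a1 and Col4a2, neighbouring genes for the chains of basement membrane collagen IV, were listed at 0 with H3.3 mRNA and had 141 and 149 FPKM with luciferase, and both were listed at 0 in untreated embryos. The membrane protein gene Emp2, the glutathione peroxidase gene Gpx2 and Slc6a13, a transporter of GABA, were likewise listed at 0 with H3.3 mRNA and had 236, 198 and 162 FPKM with luciferase, but were at most 7.1 FPKM in untreated embryos. For these 3 genes the luciferase library stood above all others.

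Among genes above 0 in every library, the lowest relative to luciferase after Nme3 was Dab2, an endocytic adaptor of the primitive endoderm, with 3.51 FPKM with H3.3 mRNA and 482 FPKM with luciferase, a difference of -6.74. It had 67.4 FPKM with H3.2 mRNA, 13.2 FPKM with the knockdown alone and 140.5 FPKM in untreated embryos, so H3.3 mRNA was the lowest of the 5. Elf3, an epithelial factor of the ETS family, had 31.6 FPKM with H3.3 mRNA and 582 FPKM with luciferase (-4.16), but untreated embryos had 22.9 FPKM. Akr1b8, an aldo-keto reductase, had 24.4 and 969 FPKM with H3.3 mRNA and with luciferase (-5.26), and also 40.4 FPKM in untreated embryos. Plin2, a coat protein of lipid droplets, had 16 FPKM with H3.3 mRNA and 363 FPKM with luciferase (-4.42), and here untreated embryos had 369 FPKM, close to luciferase. The mitotic kinase Nek6 had 2.39 and 115 FPKM with H3.3 mRNA and with luciferase (-5.1), and 207 FPKM in untreated embryos. The untreated library thus stood with luciferase for Plin2 and Nek6 and nearer to H3.3 mRNA for Elf3 and Akr1b8.

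Promoter windows are shown for a pair of genes from each side of the comparison, the trophectoderm keratins on the lower side and the oocyte genes Oosp1 and Zar1 on the higher side, because the results turn on these groups. Each runs from 250 bases before to 50 bases after the gene's start, 5′ to 3′, as RefSeq gives it for GRCm38.p6, with CpG dinucleotides in capitals. The FPKM values were made on mm9, and the windows were matched to them by gene symbol alone.
Krt18, chr15:102027966-102028265, + strand: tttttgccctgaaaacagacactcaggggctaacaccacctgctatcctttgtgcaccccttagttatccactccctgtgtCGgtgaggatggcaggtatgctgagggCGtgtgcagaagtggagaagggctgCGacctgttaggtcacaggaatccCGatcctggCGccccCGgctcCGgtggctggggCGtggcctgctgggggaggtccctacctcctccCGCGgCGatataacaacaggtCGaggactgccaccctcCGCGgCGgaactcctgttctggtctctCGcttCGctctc
Krt8, chr15:102004293-102004592, - strand: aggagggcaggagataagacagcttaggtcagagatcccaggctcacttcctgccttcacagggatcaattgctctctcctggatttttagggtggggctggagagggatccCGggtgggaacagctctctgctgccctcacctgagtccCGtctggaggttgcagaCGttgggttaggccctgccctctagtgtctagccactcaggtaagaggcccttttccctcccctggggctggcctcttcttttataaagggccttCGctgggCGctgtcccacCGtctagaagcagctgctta
Oosp1, chr19:11691002-11691301, - strand: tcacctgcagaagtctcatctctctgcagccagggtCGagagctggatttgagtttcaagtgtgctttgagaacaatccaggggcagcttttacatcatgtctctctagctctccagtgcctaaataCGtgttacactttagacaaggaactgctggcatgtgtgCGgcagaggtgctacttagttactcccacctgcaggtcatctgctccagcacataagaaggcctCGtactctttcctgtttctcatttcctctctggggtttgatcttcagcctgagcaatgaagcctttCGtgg
Zar1, chr5:72581035-72581334, - strand: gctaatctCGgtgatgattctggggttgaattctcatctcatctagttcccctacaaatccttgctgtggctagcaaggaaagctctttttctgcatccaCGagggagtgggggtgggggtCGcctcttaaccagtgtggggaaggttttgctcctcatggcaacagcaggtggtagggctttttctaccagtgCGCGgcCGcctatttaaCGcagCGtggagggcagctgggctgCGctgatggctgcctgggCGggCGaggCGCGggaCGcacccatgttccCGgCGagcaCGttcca
The windows hold 17 CpG in Krt18, 6 in Krt8, 5 in Oosp1 and 17 in Zar1, so neither side was alike in this. Over all 27025 windows the median was 7 CpG, and 43.6% held 5 or fewer. These windows, 1 a gene, were not limited to the genes compared, so they are not a matched baseline for the lists. Of the 62 oocyte and maternal-effect genes compared, 50 had a window, with a median of 3 CpG and 64% at 5 or fewer. The same count is void for the trophectoderm list, since only 12 of its 17 genes had a window. Among the 22 oocyte genes at least 4-fold higher, 19 had a window, with a median of 3 CpG and 78.9% at 5 or fewer. Among the 9 trophectoderm genes at least 4-fold lower, 8 had a window, with a median of 20 CpG and 12.5% at 5 or fewer. Whether CpG content differed between called and other genes was not tested.

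Regulators and markers of the trophectoderm and primitive endoderm were mostly lower with H3.3 mRNA than with luciferase. Of 28 members 17 passed the filter on level, 9 of these (52.9%, against 12.5% of all genes) were at least 4-fold lower and 0 higher, and the median difference was -2.23 against 0 over all genes. The other 11, Cdx2, Eomes and Sox17 among them, were at or near 0 in every library, and members that passed through their luciferase value alone had to differ, so these counts describe the list and carry no weight of their own. With all 28 members the median was -0.23, and over members above 0 in every library it was -0.3. Over the 17 past the filter the median was also low for the knockdown alone, -2.04, and for H3.2 mRNA, -1.74, each minus luciferase. The lower values were thus not particular to H3.3 mRNA, and these differences all share the luciferase library. Against untreated embryos the median for H3.3 mRNA was -0.4. Krt8, the partner of Krt18, had 22.5 FPKM with H3.3 mRNA, 836 FPKM with luciferase and 184 FPKM in untreated embryos, a difference of -5.15 from luciferase, and was listed at 0 with the knockdown alone. Hand1, a factor of trophoblast giant cells, had 152 FPKM with H3.3 mRNA and 1591 FPKM with luciferase (-3.38), and the other 3 libraries lay between 522 and 770.2 FPKM. H3.3 mRNA was the lowest and luciferase the highest of the 5 for Hand1 and for Dab2. Aqp3, a water channel, had 59.4 and 341 FPKM with H3.3 mRNA and with luciferase (-2.5), and Wwtr1, the Hippo pathway coactivator TAZ, 28 and 135 FPKM (-2.23). Krt7 and Gata3 were listed at 0 with H3.3 mRNA and had 34.5 and 27.6 FPKM with luciferase.

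Its members did not all lie on the same side. Tead4, the factor that specifies the trophectoderm, had 814 FPKM with H3.3 mRNA and 528 FPKM with luciferase (0.62), and the Hippo coactivator gene Yap1 189 and 213 FPKM (-0.17). The primitive endoderm factors Gata4 and Gata6 were also near luciferase: Gata4 had 331 FPKM with H3.3 mRNA and 73.5 FPKM with the knockdown alone, beside 405 FPKM with luciferase. Gata6 had 279.6 FPKM with H3.3 mRNA and 51.4 FPKM with the knockdown alone, beside 223 FPKM with luciferase. These 4 factors were within 2-fold of luciferase, whereas Wwtr1 was more than 4-fold lower and Gata3 was listed at 0 with H3.3 mRNA, as given above.

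Genes of keratin filaments, desmosomes and tight junctions overlap with that list in the keratins and Cdh1. Of 28 compared, 7 were at least 4-fold lower with H3.3 mRNA and 2 higher, or 25% and 7.14% against 12.5% and 8.7% of all genes, with a median of -0.67. The median was -1.14 for the knockdown alone and -0.73 for H3.2 mRNA, each minus luciferase. Against untreated embryos it was -0.66 for H3.3 mRNA. Dsp, the desmosome protein desmoplakin, had 4.22 FPKM with H3.3 mRNA and 95 FPKM with luciferase (-4.2), and was listed at 0 both with the knockdown alone and in untreated embryos. Cldn4, a tight junction claudin, had 159 FPKM with H3.3 mRNA, 881 FPKM with luciferase and 415 FPKM in untreated embryos (-2.46 from luciferase). The polarity gene Pard3 had 15.7 and 96.1 FPKM with H3.3 mRNA and with luciferase (-2.54). Cdh1, which encodes E-cadherin and holds the blastomeres together, had 86.6 and 311 FPKM (-1.83), under 4-fold. Cdh3, P-cadherin, went the other way, with 57.1 FPKM with H3.3 mRNA and 5.83 FPKM with luciferase (3.09), and untreated embryos had 61.9 FPKM.

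Oocyte and maternal-effect genes formed the clearest group above luciferase. Of 62 compared, 22 were at least 4-fold higher with H3.3 mRNA and 0 lower, a share of 35.5% against 8.7% of all genes. In all 51 of the 62 lay above luciferase by any amount, against 46% of all genes, of which 48.5% lay below, and the median difference was 1.65. The same genes were lower with H3.3 mRNA than in untreated embryos, by a median of -1.54. The H3.3 mRNA library thus lay between the control libraries in this group, and it was not the only one above luciferase: the median was 2 for the knockdown alone and 1.93 for H3.2 mRNA, all of which share the luciferase library. Bulk values cannot tell fewer embryos or cells with an mRNA from less of it in each, here and for every gene below.

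Among its members, Zar1, a maternal-effect RNA-binding protein, had 64.4 FPKM with H3.3 mRNA and 5.76 FPKM with luciferase (3.28), and 639 FPKM in untreated embryos. Btg4, which recruits the deadenylase that clears maternal mRNAs, had 189 and 29.2 FPKM with H3.3 mRNA and with luciferase (2.65), and 1389.9 FPKM in untreated embryos. H1foo, the oocyte linker histone, had 426 and 74.8 FPKM (2.49) beside 1925 FPKM in untreated embryos. In each of these the order was untreated, H3.3 mRNA, luciferase from high to low. The oocyte growth factor Gdf9 had 330.2 FPKM with H3.3 mRNA and 81.2 FPKM with luciferase (2.01), a call that ended with a pseudocount of 5 and under upper-quartile or quantile scaling, and its relative Bmp15 24.9 and 2.13 FPKM (3.05). Mos, the kinase that holds the egg in meiosis, had 18.2 FPKM with H3.3 mRNA and 289 FPKM in untreated embryos and was listed at 0 with luciferase. Members of the multigene families Nlrp4, Tcl1b, Obox and Oas1, which can trade reads, make up part of the list: Tcl1b3 had 117 and 3.74 FPKM with H3.3 mRNA and with luciferase (4.64). Not every maternal gene followed. Padi6 had 191 FPKM with H3.3 mRNA and 179 FPKM with luciferase, Nlrp5 22 and 23.9 FPKM, and Uchl1, a ubiquitin hydrolase of the egg, was lower with H3.3 mRNA at 757 against 2730.2 FPKM (-1.85), under 4-fold.

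**Figure D2:**
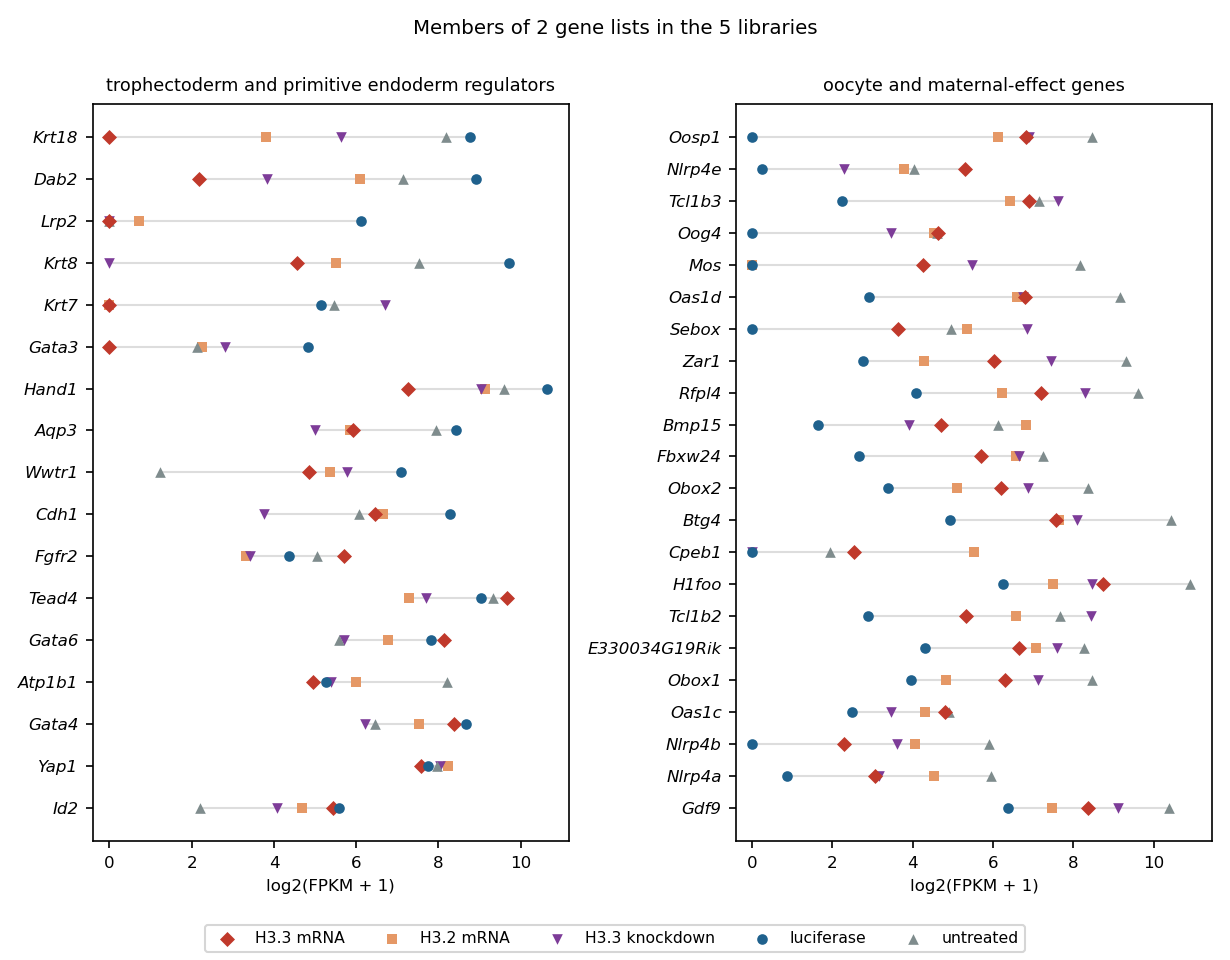
Log2(FPKM + 1) on the horizontal axis for the 17 members of the trophectoderm and primitive endoderm list past the filter on the left and the 22 oocyte and maternal-effect genes at least 4-fold higher with H3.3 mRNA on the right, 1 row a gene and 1 symbol a library. On the left luciferase (blue circles) is the highest library for Krt18, Dab2, Krt8 and Hand1, and on the right H3.3 mRNA (red diamonds) lies between luciferase and untreated (grey triangles) for genes such as Zar1, Btg4 and H1foo.

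Genes of embryonic genome activation and the 2-cell stage also lay above luciferase: 7 of 27 were at least 4-fold higher with H3.3 mRNA, 0 were lower, or 25.9% higher against 8.7% of all genes, and the median was 0.97, or 0.47 with no filter on level. The median was 0.5 for the knockdown alone and 0 for H3.2 mRNA, each minus luciferase. Against untreated embryos the median for H3.3 mRNA was -0.1, so the list was not raised against both controls. Besides Zfp352 and Zbed3, Duxbl, a double homeobox gene, had 46.8 FPKM with H3.3 mRNA and 5.29 FPKM with luciferase (2.92). The deubiquitinase gene Dub2a had 42.2 FPKM with H3.3 mRNA and 1.95 FPKM with luciferase (3.87). Hspa1a, an inducible heat shock protein switched on at the start of embryonic transcription, had 84.1 and 17.1 FPKM (2.24), with 136 FPKM in untreated embryos, and it shares most of its sequence with Hspa1b. Zscan4d, a marker of the 2-cell state, had 1.81 FPKM with H3.3 mRNA and 6.59 FPKM with luciferase. Dub2a, Duxbl, Zscan4d and Tdpoz4 belong to repeated families whose members can trade reads.

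Pluripotency genes split between those near luciferase and a few below it. Of 28 compared, 4 were at least 4-fold lower with H3.3 mRNA and 0 higher, 14.3% against 12.5% of all genes, and the median was -0.25, or 0 after quantile normalization. Tdgf1, which encodes the NODAL co-receptor CRIPTO, was listed at 0 with H3.3 mRNA and had 95.2 FPKM with luciferase, though untreated embryos had 9.86 FPKM. Nanog had 9.59 FPKM with H3.3 mRNA, 52.1 FPKM with luciferase and 21.8 FPKM in untreated embryos (-2.33 from luciferase), and was listed at 0 with the knockdown alone. Esrrb, an orphan nuclear receptor, had 13.9 and 66.5 FPKM with H3.3 mRNA and with luciferase (-2.18), and 1.29 FPKM in untreated embryos. With a pseudocount of 5 FPKM neither Nanog nor Esrrb was called. Pou5f1, which encodes OCT4, had 391 FPKM with H3.3 mRNA, 849 FPKM with luciferase and 1249.7 FPKM in untreated embryos (-1.12 from luciferase), under 4-fold. The factor genes Sall4 and Klf4 had 446 and 169 FPKM with H3.3 mRNA and 524 and 119.97 FPKM with luciferase, within 2-fold. Dppa3, or Stella, a protein that protects maternal methylation, was among the most abundant mRNAs, with 8550.2 and 10257 FPKM.

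AP-1 and immediate early genes had a median of 1.2, with 4 of 20 at least 4-fold higher, 1 lower and 17 above luciferase by any amount. The shares over all genes were 8.7% for 4-fold higher and 46% for above by any amount. Fosb, Batf3 and Egr1, called higher, were listed at 0 with luciferase and could not have been lower. The list median was 0.08 for the knockdown alone and 0.53 for H3.2 mRNA, each minus luciferase. Against untreated embryos it was 0.37 for H3.3 mRNA. Besides Fosl1, Fosb had 28.3 FPKM with H3.3 mRNA and 15.6 FPKM with H3.2 mRNA and 0 elsewhere, and Batf3 had 17.7 FPKM with H3.3 mRNA and 195 FPKM in untreated embryos and 0 elsewhere. Junb had 28.7 and 10.6 FPKM with H3.3 mRNA and with luciferase (1.35), and the small MAF gene Mafk 86.5 and 23.1 FPKM (1.86), under 4-fold. Fos itself was the exception, with 17 FPKM with H3.3 mRNA and 94.2 FPKM with luciferase (-2.4).

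Signalling pathways of the early embryo gave counts near or under those of all genes, except that 16.7% of the WNT pathway genes were lower, against 12.5% of all genes. Of 26 genes of the BMP and SMAD pathway with the Id proteins 2 were at least 4-fold higher and 3 lower, of 37 of FGF and receptor kinase signalling 3 and 4, and of 36 of the WNT pathway 1 and 6. Id3, an inhibitor of helix-loop-helix factors and a target of BMP signals, had 227 FPKM with H3.3 mRNA, 1576 FPKM with luciferase and 978 FPKM in untreated embryos (-2.79 from luciferase). The ligand gene Fgf3 had 22.8 and 179.7 FPKM with H3.3 mRNA and with luciferase (-2.92), and 276 FPKM in untreated embryos, and Fgf1 had 9.48 and 63.2 FPKM (-2.62). Fgf4, the ligand that directs the inner cell mass, lay above luciferase but under 4-fold, at 171 FPKM with H3.3 mRNA and 61.6 FPKM with luciferase (1.45). Wls, the carrier that WNT proteins need for secretion, was listed at 0 with H3.3 mRNA and in untreated embryos and had 60.3 FPKM with luciferase. Tle4, a corepressor in the WNT pathway, had 33.5 and 175 FPKM with H3.3 mRNA and with luciferase (-2.35).

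Genes of protein synthesis, splicing and respiration lay close to luciferase. None of 68 spliceosome genes or 55 genes of translation initiation and tRNA charging was 4-fold apart, and of 82 cytosolic ribosomal proteins, 76 mitochondrial ribosomal proteins and 76 respiratory chain subunits 1, 0 and 1 were higher and 1, 3 and 1 lower. These are abundant genes, with list medians from 8.61 to 10.5 on the log2 scale with luciferase. Among all genes with a mean of 100 to 1000 FPKM only 2.57% were higher and 3.53% lower. Whether the lists differ from other genes of their level was not tested. Ribosome biogenesis genes were called no more often, with 1 higher and 1 lower of 78, but 56 of them lay above luciferase by some amount, against 46% of all genes, and the median was 0.34. Rrp9, a component of the U3 particle that cuts ribosomal RNA, had 1409 FPKM with H3.3 mRNA and 349 FPKM with luciferase (2.01, under 4-fold with upper-quartile scaling), and the nucleolar genes Gnl3 and Bop1 had 2835 and 775 FPKM with H3.3 mRNA against 994 and 230.2 FPKM with luciferase (1.51 and 1.75). Glycolysis, pyruvate and TCA cycle genes had a median of -0.61, with 6 of 44 at least 4-fold lower and 0 higher. Its lower share, 13.6%, was near the 12.5% of all genes. Hk2, the hexokinase of growing cells, had 4.71 FPKM with H3.3 mRNA and 74.9 FPKM with luciferase (-3.73). Idh2, the mitochondrial isocitrate dehydrogenase, had 145 and 1186 FPKM (-3.02) but 33.9 FPKM in untreated embryos, and the glucose transporter gene Slc2a3 had 83.1 and 449 FPKM (-2.42) with 63.3 FPKM in untreated embryos. For both of these the luciferase value was the highest of the 5.

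Cell cycle lists were also near luciferase: of 65 genes of mitosis 2 lay 4-fold or more above luciferase and 3 below, and of 62 of DNA replication 2 and 2. Their median levels with luciferase were 7.85 and 8.42 on the log2 scale. Among all genes with a mean of 100 to 1000 FPKM, 2.57% were higher and 3.53% lower, so few calls are usual at such levels. Spc24, a kinetochore subunit, had 47.1 FPKM with H3.3 mRNA and 433 FPKM with luciferase (-3.17), and Cenpa, the centromeric H3 variant, 163 and 767 FPKM (-2.23). H3.3 mRNA was the lowest of the 5 for both. Cenpk, another kinetochore subunit, went the other way with 87.4 and 6.76 FPKM (3.51).

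The chaperones of H3 were not 4-fold apart in any member, against 8.7% higher and 12.5% lower of all genes. Calls depended on level, and the median level of this list with luciferase was 6.61 on the log2 scale. Whether the list differs from other genes of its level was not tested. By any amount 18 of 24 lay above luciferase, against 46% of all genes, and the median was 0.47. It was 0.51 for H3.2 mRNA and -0.27 for the knockdown alone, each minus luciferase. Against untreated embryos the median for H3.3 mRNA was -0.04, so the shift was neither particular to H3.3 mRNA nor present against both controls. Hira had 285 FPKM with H3.3 mRNA, 162 FPKM with H3.2 mRNA, 111 FPKM with the knockdown alone, 73.6 FPKM with luciferase and 93.4 FPKM in untreated embryos (1.94 for H3.3 mRNA), so H3.3 mRNA was the highest of the 5. Cabin1, its partner, had 205 and 52.3 FPKM with H3.3 mRNA and with luciferase (1.95), and was again highest with H3.3 mRNA. Daxx had 199 and 81 FPKM (1.29), but untreated embryos had 306 FPKM. Atrx had 43.8 FPKM with H3.3 mRNA and 2.76 FPKM with the knockdown alone, beside 41.9 FPKM with luciferase. Chaf1a, a subunit of the chaperone CAF-1 that places H3.1 and H3.2 during replication, had 408 and 158 FPKM (1.36).

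Other chromatin genes gave few calls. For the enzyme, Polycomb and remodeller lists the shares were near or under the 8.7% higher and 12.5% lower of all genes, except that 11.8% of the H3K4 genes were higher. The lower shares of the histone lists, given last, were above 12.5%. None of 32 Polycomb genes was 4-fold apart, and of 18 enzymes of H3K9 methylation 1 was higher, of 17 of H3K4 methylation 2 were higher, of 25 acetylation enzymes 1 was higher and 2 lower, and of 21 DNA methylation genes 2 and 1. Setd1a, an H3K4 methyltransferase, had 124 FPKM with H3.3 mRNA and 20.9 FPKM with luciferase (2.51), and Men1, or menin, of the MLL complexes, 292 and 57.9 FPKM (2.31). Setdb1, an H3K9 methyltransferase, had 492 and 129.8 FPKM (1.91), and H3.3 mRNA was its highest library, with the others at most 183 FPKM. Of 31 remodellers 2 were lower and 0 higher: Smarcd3, a SWI/SNF subunit, was listed at 0 with H3.3 mRNA and had 196 FPKM with the knockdown alone and 169 FPKM with luciferase, and Smarcd2 had 219.7 and 1305 FPKM (-2.56). H2afz, the variant H2A.Z, had 1398 FPKM with H3.3 mRNA and 4580.3 FPKM with luciferase (-1.71), the lowest of its 5 values. In its list of histone variants and linker histones, 2 of the 11 past the filter were higher and 2 lower, or 18.2% each. Replication-dependent histone mRNAs have no poly(A) tail, and only 15 of 59 passed the filter, with 5 lower, all of them listed at 0 with H3.3 mRNA. The lower share was 33.3%, against 12.5% of all genes. Members that passed through their luciferase value alone, such as Hist1h2bn, had to be lower.

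Stress and damage lists were likewise mixed. Of 51 heat shock genes 3 lay 4-fold or more above luciferase and 4 below, of 44 of the unfolded protein and integrated stress responses 1 and 2, of 36 p53 and growth arrest genes 2 and 4, of 33 BCL2 family and caspase genes 2 and 6, and of 65 DNA repair genes 3 and 3. Against 8.7% higher and 12.5% lower of all genes, the lower share was 18.2% of the BCL2 and caspase genes and 11.1% of the p53 genes. Atf5, a stress-induced bZIP factor, had 221 FPKM with H3.3 mRNA, 21.6 FPKM with luciferase and 3.84 FPKM in untreated embryos (3.3 from luciferase). Xbp1, the factor of the unfolded protein response, had 22.2 and 262 FPKM with H3.3 mRNA and with luciferase (-3.5), and Pdia6, a disulfide isomerase, 51.2 and 462 FPKM (-3.15). Ddb2, a DNA damage sensor and p53 target, was higher at 307 against 57.4 FPKM (2.4), while Perp, a p53 target of desmosomes, was lower at 46.9 against 265 FPKM (-2.47). Bcl2l1, which encodes BCL-XL, had 71.9 FPKM with H3.3 mRNA and 321 FPKM with luciferase (-2.14). Hspa8, the constitutive HSC70, had 4866 and 13860.3 FPKM (-1.51), and untreated embryos had 5653 FPKM.

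Interferon and antigen presentation genes were called in both directions, 6 of 34 higher and 5 lower, or 17.6% and 14.7%, against 8.7% and 12.5% of all genes, so that the lower share was near that of all genes. Psmb8, a subunit of the immunoproteasome, had 48.8 FPKM with H3.3 mRNA and 1107 FPKM in untreated embryos and was listed at 0 with luciferase, with H3.2 mRNA and with the knockdown alone. Oasl2 had 81.8 FPKM with H3.3 mRNA, 14.5 FPKM with luciferase and 87.2 FPKM in untreated embryos (2.41 from luciferase). Isg15, a ubiquitin-like protein induced by interferon, had 31.7 FPKM with H3.3 mRNA and was listed at 0 with luciferase and in untreated embryos. Ifitm3 was listed at 0 with H3.3 mRNA and had 28.4 FPKM with luciferase and 254 FPKM in untreated embryos. H2-T22 and other class I genes are near-identical copies of each other and are uncertain.

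Imprinted genes were mostly low in these libraries. Of 34 imprinted genes past the filter, of 55 found, 3 lay 4-fold or more above luciferase and 6 below, with a median of -0.02. That is 8.82% higher and 17.6% lower, against 8.7% and 12.5% of all genes. Plagl1, a zinc finger factor expressed from the paternal allele, had 1.81 FPKM with H3.3 mRNA and 49.2 FPKM with luciferase (-4.16) and was listed at 0 in untreated embryos. Nnat, or neuronatin, had 9.61 and 108 FPKM (-3.36) and was also listed at 0 in untreated embryos. Usp29 was higher at 37.2 FPKM with H3.3 mRNA against 7.31 FPKM with luciferase (2.2), a call that ended with a pseudocount of 5. Xist, the RNA that silences an X chromosome, had 3.45 FPKM with H3.3 mRNA and 12.6 FPKM with luciferase (-1.61), and its antisense gene Tsix overlaps it, so that without a stated strand their reads cannot be told apart. On the X chromosome 9.17% of 458 genes were higher and 14.6% lower, close to the shares of all genes.

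Of 31 germline genes 9 were at least 4-fold lower and 4 higher, or 29% and 12.9% against 12.5% and 8.7% of all genes, with a median of 0. Most lower members were low genes listed at 0 with H3.3 mRNA. Mael, of the piRNA pathway, had 9.07 FPKM with H3.3 mRNA and 64 FPKM with luciferase (-2.69). Lists of other cell types had few members above the filter. Of 36 fibroblast and mesenchymal genes 16 passed, 6 of them lower and 0 higher: Vim, or vimentin, was listed at 0 with H3.3 mRNA and had 21.8 FPKM with luciferase and 68.7 FPKM in untreated embryos, and Sparc had 53.1, 281 and 719 FPKM with H3.3 mRNA, with luciferase and in untreated embryos. The lower share was 37.5%, against 12.5% of all genes. In this list and the germline list, members that passed through their luciferase value alone, such as Twist1 and Rhox6, had to be lower. These counts thus carry no weight of their own. Of the cumulus and blood or endothelial genes 11 each passed, with 3 and 3 higher and 1 and 4 lower. That is 27.3% higher in each and 9.09% and 36.4% lower, in lists too short to read further. Pecam1, an endothelial adhesion gene that the early embryo also expresses, had 647 FPKM with H3.3 mRNA and 184 FPKM with luciferase (1.81), while the defining endothelial genes Cdh5 and Kdr were listed at 0 in both.

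**Figure D3:**
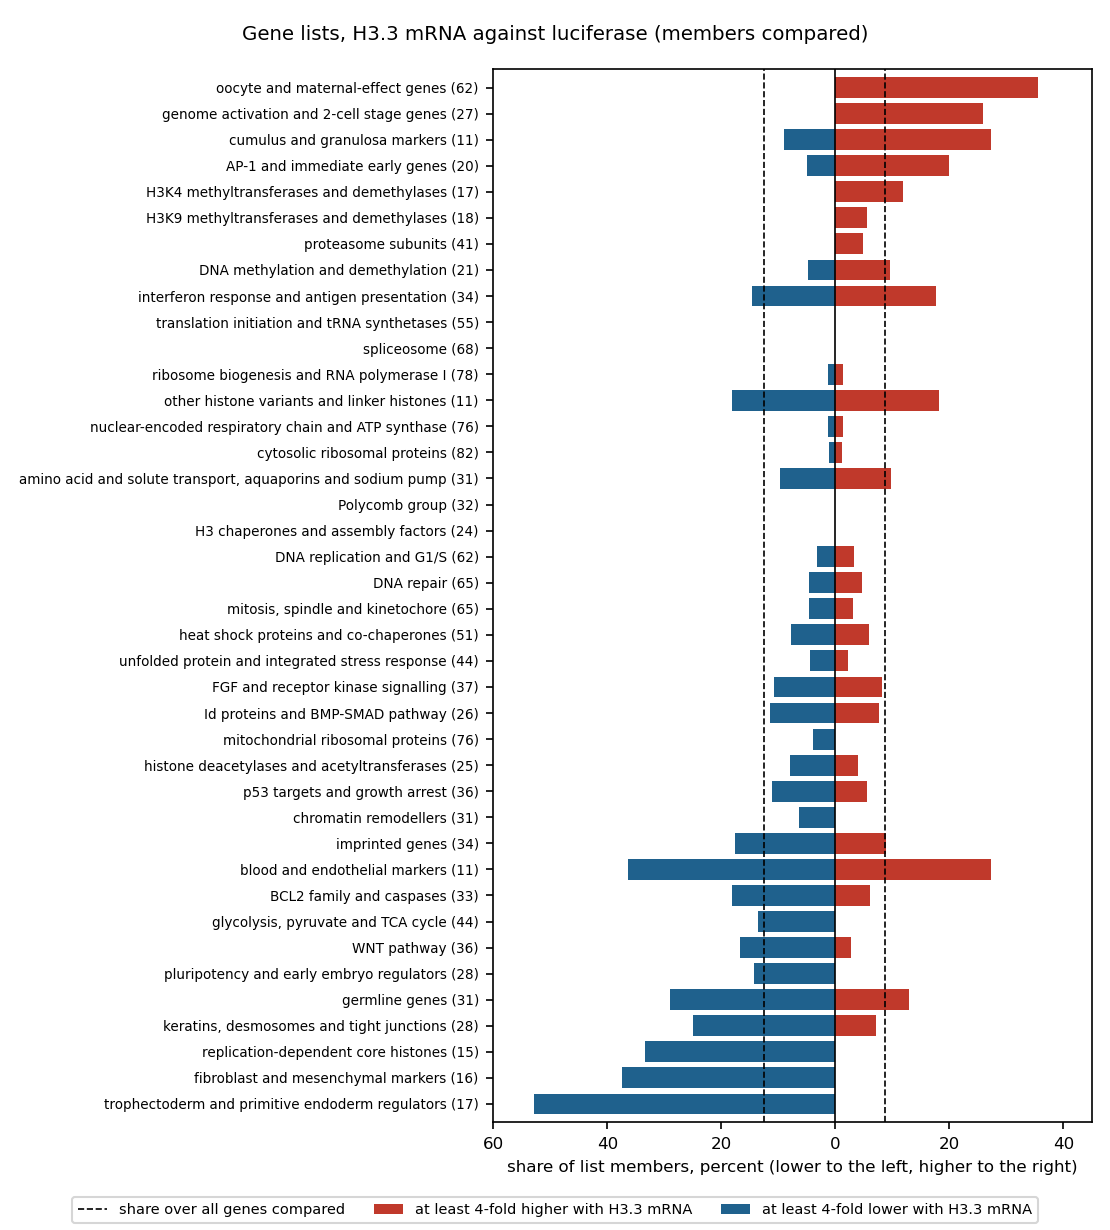
Share of each gene list at least 4-fold higher (red, to the right) and at least 4-fold lower (blue, to the left) with H3.3 mRNA than with luciferase, in percent of the members past the filter, whose number is in brackets, for lists with 10 or more such members. Dashed lines mark the shares over all genes compared, 8.7% and 12.5%, and the oocyte list at the top and the trophectoderm list at the bottom reach furthest past them.

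What stayed different after H3.3 mRNA was counted as the genes at least 4-fold from luciferase the same way both with H3.3 mRNA and with the knockdown alone. There were 400 such genes on the higher side and 990 on the lower side, 3.04% and 7.53% of all genes compared. The higher ones are 35% of the genes called higher with H3.3 mRNA and 31.2% of those called higher with the knockdown alone. The lower ones are 60.1% of the genes called lower with H3.3 mRNA and 40% of those with the knockdown alone. Both differences are taken from the same luciferase library, so a gene with an unusual value there is counted in both, and the counts are descriptions. In 734 of the 990 lower genes the value was 0 in both knockdown libraries, and 166 of the 400 higher genes were listed at 0 with luciferase. Above 0 in every library were 189 of the higher and 122 of the lower genes. A further 70 genes were called higher with H3.3 mRNA and lower with the knockdown alone, and 73 the other way round.

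Among the genes that stayed higher, ranked by the smaller of their differences, were Bfsp1, Sycp3 and Tcl1b3, described above. Prg4, which encodes lubricin, had 35.5 FPKM with H3.3 mRNA and 35.9 FPKM with the knockdown alone, against 0.19 FPKM with luciferase and 2.83 FPKM in untreated embryos. The untreated library was also low for Prg4. Hyal2, a hyaluronidase, had 149.97 and 162 FPKM in the H3.3 mRNA and knockdown libraries against 9.31 FPKM with luciferase, but untreated embryos had 319 FPKM, the highest of all. Rgl2, an activator of RAL GTPases, had 40.5 and 82 FPKM in the same order, 1.52 FPKM with luciferase and 26.1 FPKM in untreated embryos.

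On the lower side, Dab2 and H3f3a came first. Fabp5, a fatty acid carrier, had 22.4 FPKM with H3.3 mRNA and 19.3 FPKM with the knockdown alone, against 271 FPKM with luciferase and 402 FPKM in untreated embryos, so both controls lay above both knockdown libraries. Ccng2, a cyclin of growth arrest, had 26.1 and 2.66 FPKM in the H3.3 mRNA and knockdown libraries against 307 FPKM with luciferase and 40.9 FPKM in untreated embryos. Hivep1, a zinc finger factor, had 2.76 and 4.35 FPKM against 72.8 and 18.6 FPKM in the same libraries, and Nek6 2.39 and 8.39 FPKM against 115 and 207 FPKM. Pros1, which encodes the anticoagulant protein S, had 3.19 and 3.95 FPKM against 61.5 FPKM with luciferase, and at 1.58 FPKM the untreated library was lower still.

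**Figure D4:**
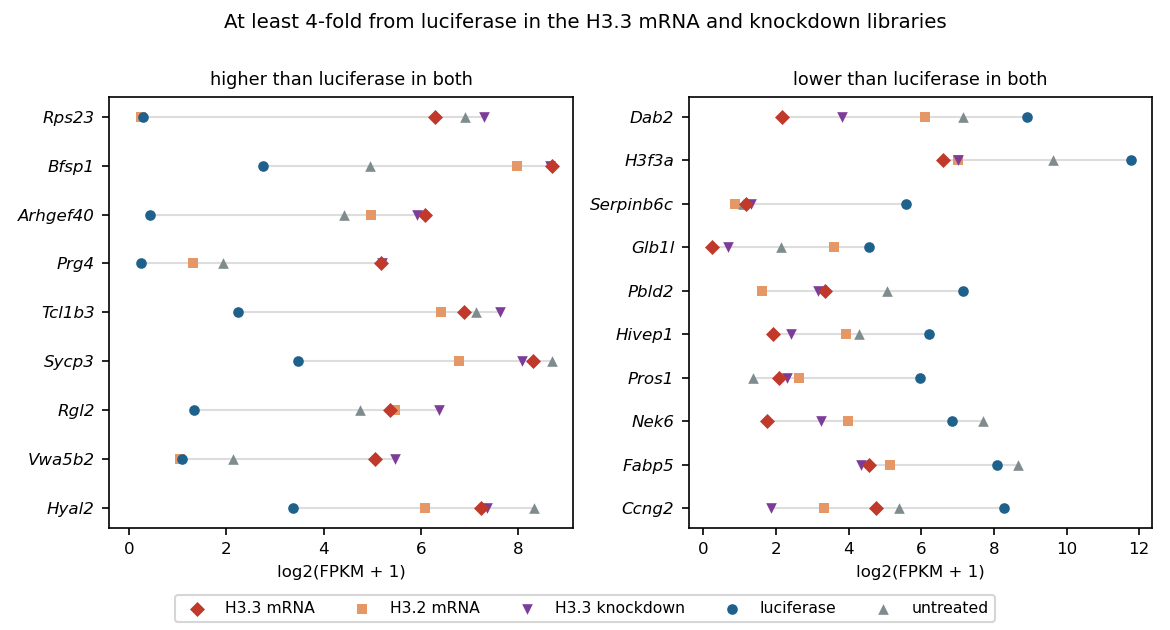
Log2(FPKM + 1) on the horizontal axis for 9 of the 10 genes with the highest smaller difference and the 10 with the lowest among those at least 4-fold from luciferase the same way with H3.3 mRNA and with the knockdown alone, above 0 in every library, 1 symbol a library. In each row the H3.3 mRNA (red diamonds) and knockdown (purple triangles) values lie on the same side of luciferase (blue circles), whereas untreated embryos (grey triangles) vary from row to row, nearer to luciferase for Prg4 and the highest of the 5 for Hyal2.

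In another set of genes the H3.3 mRNA library was at least 4-fold from both luciferase and the knockdown alone in the same direction: 591 genes were higher and 544 lower than both, 4.5% and 4.14% of those compared, and 67 and 137 of them were above 0 in every library. Both differences share the H3.3 mRNA library. Fosl1, Slc19a1 and Fam117a led the higher side, and in all of these the untreated library was high as well: Fam117a had 162 FPKM with H3.3 mRNA, 7.96 FPKM with the knockdown alone, 4.46 FPKM with luciferase and 113 FPKM in untreated embryos. With H3.2 mRNA Slc19a1 and Fam117a had 90.6 and 66.7 FPKM, also above luciferase, whereas Fosl1 had 3.44 FPKM. Igtp, an interferon-induced GTPase, had 52.9 FPKM with H3.3 mRNA, 4.42 FPKM with the knockdown alone, 2.99 FPKM with luciferase and 200.3 FPKM in untreated embryos, and Parp10, an ADP-ribosyltransferase, 54.2, 4.24, 3.71 and 202 FPKM in that order. The zinc finger repressor Hic1 had 52, 3.86, 4.1 and 151 FPKM likewise. Sla2, an adaptor of lymphocyte receptors, differed from these in that untreated embryos had only 0.89 FPKM beside 45.9 FPKM with H3.3 mRNA.

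On the lower side, Neat1, the long RNA that builds paraspeckles, had 2.23 FPKM with H3.3 mRNA, 146 FPKM with the knockdown alone, 157 FPKM with luciferase and 9.48 FPKM in untreated embryos. Nme3, a nucleoside diphosphate kinase, had 0.36, 230.3, 211 and 0.64 FPKM in that order, and its 0.71 FPKM with H3.2 mRNA was also near 0. Tusc3, a subunit of the enzyme that adds sugars to new proteins, had 4.97 FPKM with H3.3 mRNA, 159 FPKM with the knockdown alone, 103 FPKM with luciferase and 18.4 FPKM in untreated embryos. Echs1, an enzyme of fatty acid oxidation, had 7.69, 226, 113 and 35.7 FPKM likewise, and Rpusd3, a pseudouridine synthase, 10.1, 563, 165 and 17.1 FPKM. The untreated library was low for Neat1, Nme3, Tusc3 and Rpusd3. For Echs1 it lay between H3.3 mRNA and luciferase. For Anxa8, an annexin, it was the highest, with 18.1 FPKM with H3.3 mRNA, 215 FPKM with the knockdown alone, 380.4 FPKM with luciferase and 423 FPKM in untreated embryos.

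**Figure D5:**
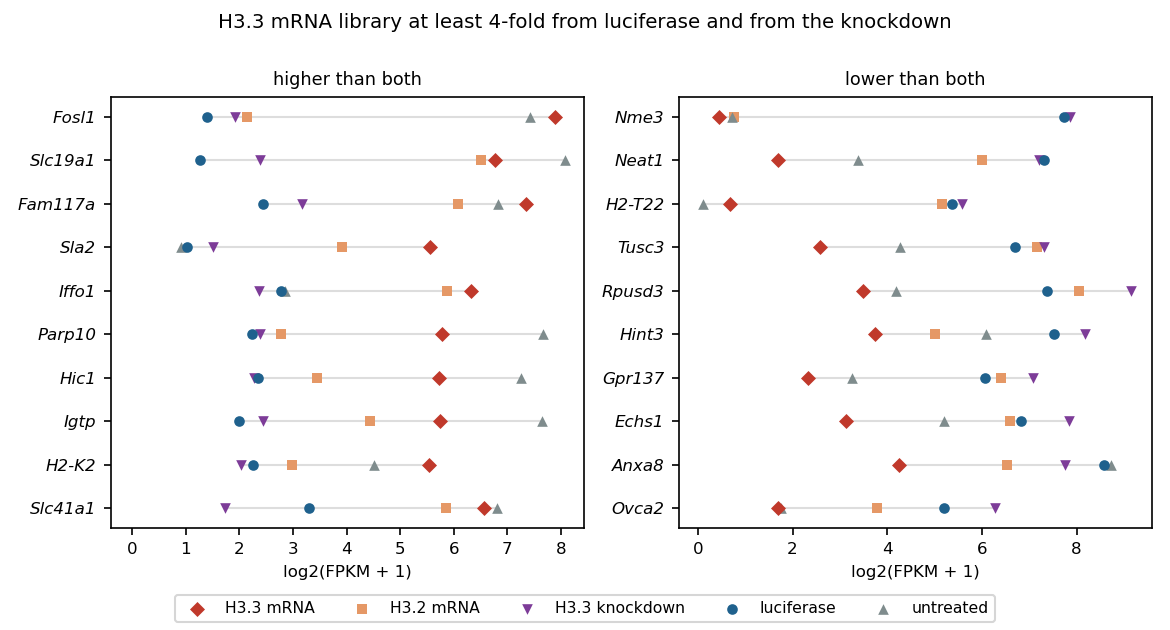
Log2(FPKM + 1) on the horizontal axis for the 10 highest and 10 lowest genes, by the smaller difference, among those at least 4-fold from both luciferase and the knockdown alone in the H3.3 mRNA library and above 0 in every library, 1 symbol a library. The luciferase (blue circles) and knockdown (purple triangles) values lie together on one side, and the untreated values (grey triangles) lie near H3.3 mRNA (red diamonds) for genes such as Fosl1 and Nme3 but not for Sla2 or Anxa8.

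The reverse case also occurred, though no more often than the share of all genes near luciferase. Of the 2478 genes at least 4-fold lower than luciferase with the knockdown alone, 896 were within 2-fold of luciferase with H3.3 mRNA, as were 517 of the 1280 higher ones. Both shares were under the 56.4% of all genes compared that lay within 2-fold. That 56.4% is no matched baseline: it includes genes listed at 0 in both libraries, and the share within 2-fold rose with the level of the gene. The genes called with the knockdown were also chosen on the same luciferase value. The counts by themselves therefore cannot show whether values returned to luciferase. The library of the knockdown alone followed transcript length as given above, and its median difference from luciferase was -0.75 in the longest of 4 length classes and 0.37 in the shortest, where H3.3 mRNA had 0 in both, and the part of this in the counts was not tested. Chosen after their values were seen, Tbx3, a pluripotency factor, had 66.9 FPKM with H3.3 mRNA, 3.09 FPKM with H3.2 mRNA, 1.34 FPKM with the knockdown alone, 120.3 FPKM with luciferase and 72.7 FPKM in untreated embryos. Klf5, a factor of early lineages, had 309 FPKM with H3.3 mRNA, 58 FPKM with H3.2 mRNA, 41 FPKM with the knockdown alone and 182 FPKM with luciferase. For these 2 genes the H3.3 mRNA library lay nearer to luciferase and the H3.2 mRNA library near the knockdown. That was not general: Eif3a, a translation initiation subunit, had 604 FPKM with H3.3 mRNA, 579.5 FPKM with H3.2 mRNA, 86.9 FPKM with the knockdown alone and 629 FPKM with luciferase. Brca2, of homologous recombination, had 219.8, 205, 33.4 and 240.02 FPKM in the same order, and its untreated value was 38.3 FPKM, close to that of the knockdown.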

How the data were processed

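Total RNA of 4-cell nuclear-transfer embryos was made into Illumina TruSeq libraries, and 51 bases were sequenced from one end, per the labels. The authors deposited 1 FPKM value per gene symbol and library, made with TopHat and Cufflinks on mm9 according to the submitters' processing notes, without versions, strand setting or annotation. FPKM keeps no read count, so depth and the precision it would give are unknown, and abundant transcripts that differ shift the share of all others. Groups came from the treatment tags, and from the title for the H3.2 mRNA library. From the deposited values log2(FPKM + 1) was computed with Python 3.11.15, pandas 2.3.3 and numpy 2.4.6, on genes whose 5 values average 1 FPKM or more. With 1 library a group no test was run and no sample was averaged. The code that makes the calls was tested on simulated data with known changes, which says nothing about replicate spread. The comparison, the 44 gene lists (1750 symbols in all, of which 1486 were compared) and the thresholds were chosen with earlier results of these data known, so they support nothing by themselves. Genes were named by a rule: the 15 highest and 15 lowest differences among all genes and among genes above 0 in every library, the 10 highest and 10 lowest of the sets that stayed or stood apart, and up to 5 members of each list with the largest absolute difference, leaving out clone and model names. A few genes named by this rule are not reported here. List members outside the top 5 and the genes picked to show agreement with luciferase were named after their values were seen. Chromosomes came from RefSeq (GRCm38.p6) and transcript lengths from GENCODE for GRCm38, matched by symbol. Alternatives were other pseudocounts, filters, scalings and folds, a correction for transcript length, and untreated embryos as the control.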

Additional observations from a re-analysis of the deposited data

How the results depend on the processing

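The order of the counts below is genes higher with H3.3 mRNA, genes lower, genes that stayed different in the knockdown library too, and genes 4-fold from both luciferase and the knockdown. They were 1144, 1647, 1390 and 1135 as reported. With a pseudocount of 5 FPKM they were 510, 713, 527 and 439, at 2-fold 2646, 3080, 2889 and 2637, and at 8-fold 552, 934, 695 and 610. A filter at a mean of 50 FPKM left 221, 295, 238 and 163 genes, and genes above 0 in every library gave 370, 361, 311 and 204, each testing fewer genes by construction. A filter at 5 FPKM gave 1062 lower genes and 835 that stayed. Against untreated embryos 2703 genes were higher. Restricting to genes above 0 in both libraries, an alternative added after the data were seen, gave 599 higher and 506 lower genes. A pseudocount of 0.1, no filter, scaling by median ratio or upper quartile, quantile normalization and removal of the length trend left the higher and lower counts within 1.5 times. Upper-quartile scaling shifted the median of all genes by -0.12. No named gene turned its direction in the 2853 values recomputed for 318 genes, and 67 of these values no longer passed 4-fold, 59 of them with a pseudocount of 5. These values were all taken against luciferase. A change of pseudocount or filter cannot turn a direction, so only the scalings and the length correction could have turned one. Against untreated embryos, 57 of the 232 named genes at least 4-fold from luciferase lay on the opposite side, 21 of them by 4-fold or more. The oocyte median was 1.13 with a pseudocount of 5. Without the filter the medians were -0.23 for the trophectoderm list, 0.47 for genome activation and 0 for the interferon and fibroblast lists, and the trophectoderm median was -0.30 over genes above 0 in every library. Where these counts moved with the pseudocount, the fold or the control, the cause was not tested. No paired analysis was possible because each group has 1 library. Leaving out a replicate was not possible for the same reason, and without counts no depth limit could be given.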

Other observations

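By chromosome, the share of genes at least 4-fold higher with H3.3 mRNA than with luciferase ran from 5.05% of 594 genes on chromosome 3 to 12% of 1052 genes on chromosome 7. The share of lower genes ran from 9.23% on chromosome 8 to 15.3% on chromosome 6. By transcript length, 10.4% of genes in the shortest of 4 length classes were higher and 15.1% lower, against 8.22% and 9.85% of the longest class. Of the 100 genes with the highest luciferase values, 75 were also among the 100 highest with H3.3 mRNA. Some genes usually taken as markers of other cell types were high in all libraries of this comparison while the defining markers of the same cells were at 0: Gata1 had 724 FPKM with H3.3 mRNA and 1534 FPKM with luciferase beside Ptprc at 0, and Amhr2 had 429 FPKM with H3.3 mRNA and 472 FPKM with luciferase beside Fshr at 0.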
